A study of Mus musculus with 4 samples.

Results

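The core kinase cascade of the Hippo pathway and its upstream regulators were followed in neonatal mandible and maxilla, called jaw here, and in brain of FoxO6-/- and wild type (WT) mice. The 10 genes were taken by name: the MST1 kinase gene Stk4, its scaffold Sav1, the LATS kinase genes Lats1 and Lats2, their coactivators Mob1a and Mob1b, and the upstream genes Nf2, Wwc1, Amot and Fat4. Every Affymetrix probe set annotated to 1 of these symbols alone was used, which gave 31 of 45101 probe sets on the array. RNA was hybridised to 4 arrays, 1 per tissue and genotype, so that each group is a single array. All mice were at postnatal day 0 per the labels, whereas the study's text describes the jaw tissue as embryonic. RNA of 4 animals was combined, and the methods include heterozygous animals among the mutants, so the FoxO6-/- arrays may not be purely null. In the mutant allele both FoxO6 exons are replaced by a LacZ and neomycin cassette, and the line is kept on a C57BL/6 background. The annotation gives no probe set the name Foxo6, and the genotypes are therefore taken from the labels alone. The gene of the second MST kinase, Stk3, is likewise without a named probe set and was not analysed here.

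In the Hippo pathway, MST kinases held by the scaffold SAV1 phosphorylate the LATS kinases and their coactivator MOB1. Active LATS then phosphorylates the coactivators YAP and TAZ, which keeps them out of the nucleus, where they would switch on growth genes together with TEAD factors. Merlin (Nf2), KIBRA (Wwc1) and angiomotin (Amot) bring the kinases to the cell cortex or hold YAP there, and the giant cadherin FAT4 acts in cell polarity and is linked to the pathway. Much of this control works by phosphorylation, which an RNA array does not measure. The study asks whether FoxO6, a forkhead transcription factor, raises the expression of the LATS kinases in the growing face. It reports both LATS genes as lower in FoxO6-/- jaw, from expression profiling and from RT-qPCR. The RT-qPCR was not re-examined here.

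The promoters of Lats1, Lats2 and Wwc1 are shown because Lats1 and Lats2 are the genes the study asks about and Wwc1 is the member whose genotype ratio differed most between the tissues. Each runs from 250 bases before to 50 after a transcript start of the RefSeq annotation, on build GRCm38.p6 and read along the gene. Lats1 lies at chr10:7680959-7681258 on the plus strand, Lats2 at chr14:57746074-57746373 on the minus strand and Wwc1 at chr11:35980478-35980777 on the minus strand. Capitals mark letters of the motifs searched.
Lats1: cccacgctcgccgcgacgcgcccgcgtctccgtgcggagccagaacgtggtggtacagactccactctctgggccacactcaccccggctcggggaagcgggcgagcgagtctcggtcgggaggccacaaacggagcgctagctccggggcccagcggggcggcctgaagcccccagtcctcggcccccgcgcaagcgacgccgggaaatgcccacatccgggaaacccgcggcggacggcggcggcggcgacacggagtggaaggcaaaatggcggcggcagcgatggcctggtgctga
Lats2: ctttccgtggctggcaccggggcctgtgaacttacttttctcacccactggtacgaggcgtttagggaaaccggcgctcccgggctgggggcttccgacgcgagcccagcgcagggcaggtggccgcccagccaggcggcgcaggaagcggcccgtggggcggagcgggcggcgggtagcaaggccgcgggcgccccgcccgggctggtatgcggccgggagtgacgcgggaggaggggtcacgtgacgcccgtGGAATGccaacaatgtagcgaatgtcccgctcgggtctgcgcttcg
Wwc1: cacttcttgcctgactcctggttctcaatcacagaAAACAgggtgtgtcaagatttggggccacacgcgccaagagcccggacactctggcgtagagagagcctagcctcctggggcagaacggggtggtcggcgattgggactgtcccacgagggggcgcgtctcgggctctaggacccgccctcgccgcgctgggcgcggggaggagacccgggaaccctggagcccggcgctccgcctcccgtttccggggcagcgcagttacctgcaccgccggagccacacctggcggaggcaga

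All 10 genes had a promoter in the RefSeq table, with 12 windows in all because Lats2 and Nf2 have 2 each. The FOXO site GTAAACA was searched on both strands and was found in 0 of the 12 windows, against 3.65% of 32851 promoters of the same length. Its shorter forkhead core AAACA, which lies inside the longer motif, was found in 5 of 12 windows, those of Amot, Fat4, Mob1a and Wwc1 and 1 of Nf2, against 50.5% of all promoters. The TEAD site GGAATG was found in 3 of 12, those of Sav1, Mob1a and Lats2, against 14.7%. In Lats2 it starts at base 5 of the transcript and in Wwc1 the forkhead core starts 215 bases before the transcript. The Lats1 window held 0 of these letters and has 73.0% G and C. The windows are short and a match of letters shows no binding. The paper reports a FoxO6 site farther upstream of Lats1 than this window reaches. That stretch was not searched, so the Lats1 count says nothing about the reported site.

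The deposited values are MAS5 signals on a linear scale, and the middle of all signals, 101, served as the floor. Of the 31 probe sets, 18 had a mean signal over the 4 arrays at or above the floor, at least 1 for each of the 10 genes, and 13 lay below it. Probe sets of a gene are called brightest, second and so on by their mean signal. With 1 array per group a genotype ratio within a tissue has no replicate error, and the only spread within the arrays is that between probe sets of 1 gene. For 4927 genes the 2 brightest probe sets differed in their genotype log2 ratio with an SD of 0.42 in jaw and 0.39 in brain. On the FoxO6-/- jaw array the 3' control signal exceeded the 5' signal 3.37-fold for Actb and 1.95-fold for Gapdh, while the other 3 arrays gave 2.21 to 2.23 and 1.44 to 1.55. Whether this bears on the ratios in jaw was not tested. Markers of neurons and of enamel and dentin went with the tissue labels. All 16 neuronal genes were lower in jaw than in brain in both genotypes. All 8 enamel and dentin genes were below the floor in brain. The 7 bone genes were higher in jaw in both genotypes. Of 12 cartilage genes, 10 were higher in jaw in WT, but 12 were lower in jaw in FoxO6-/-. Of 11 glial genes measured, 8 were lower and 3 higher in jaw in each genotype. The brain arrays also held signal for markers of other tissues. There 12 skeletal muscle genes, all above the floor on every array, had a median signal of 7821 in WT and 5575 in FoxO6-/-, against 15849 and 15305 in jaw. Its part in differences between jaw and brain was not tested. Fewer cells of a type and less RNA per cell cannot be told apart in such tissue.

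Expression of the cascade varied little over the 4 arrays. Among the 18 probe sets above the floor the highest signal exceeded the lowest by 1.07-fold to 2.53-fold. The smallest range was that of the second Fat4 probe set and the widest those of Wwc1 and Lats2. WT jaw was the highest of the 4 arrays for 9 of the 18 probe sets, both of Sav1, 2 of Lats2 and 1 each of Stk4, Mob1a, Mob1b, Amot and Fat4. Over all 23057 probe sets above the floor this was so for 28.7%. This way of counting was chosen after the values were seen.

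**Figure D1:**
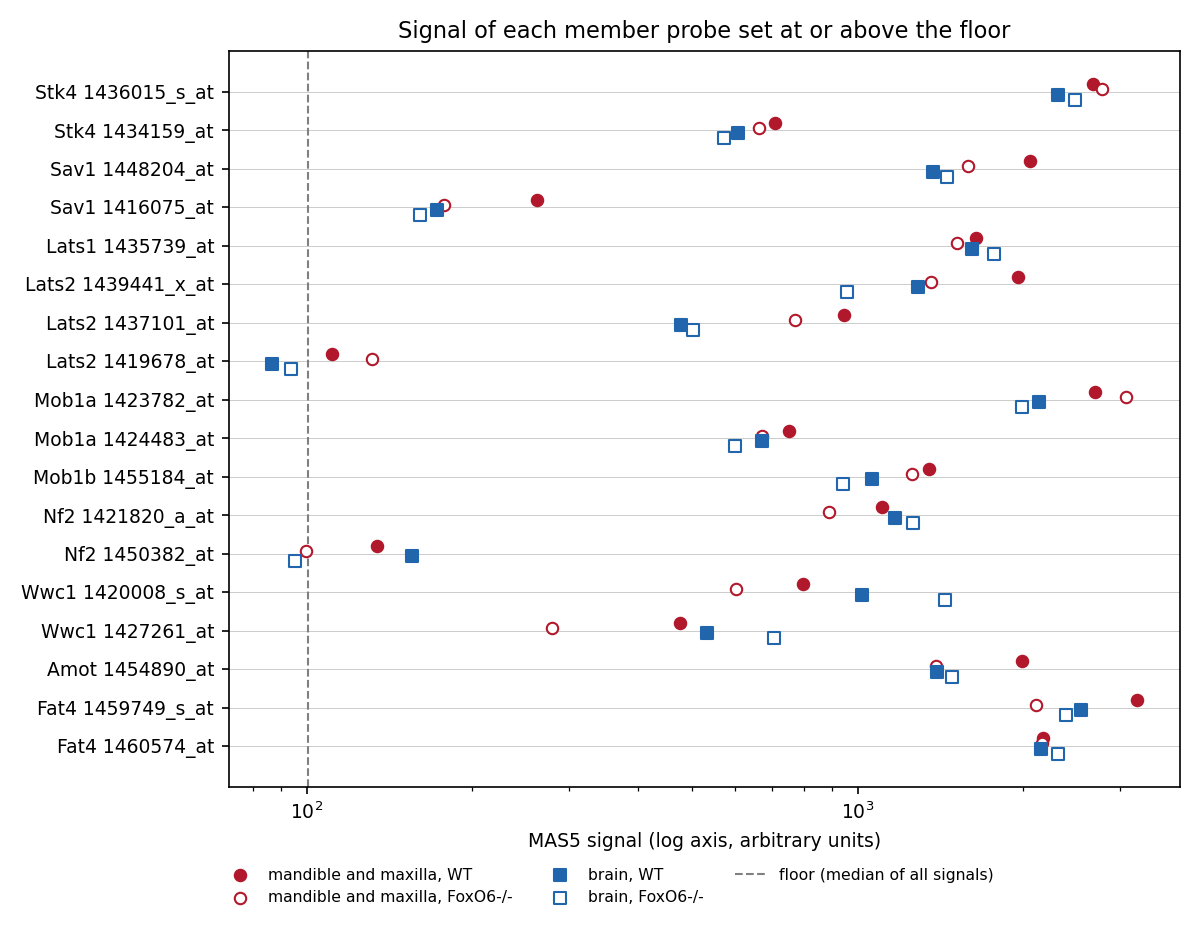
MAS5 signal (log axis) of the 18 probe sets at or above the floor, with 1 point per array, red for mandible and maxilla, blue for brain, filled for WT and open for FoxO6-/-, and the floor of 101 dashed. The 4 points of a probe set lie within 2.53-fold of each other, and filled red is the highest in 9 of 18.

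Jaw and brain were compared with limma over all 4 arrays, with genotype as a term, so that the genotypes stand in for replicates of a tissue. None of the 18 probe sets passed an adjusted p of 0.05, while 5.56% of all 23057 probe sets were called higher in jaw and 7.58% higher in brain. At an unadjusted p under 0.05, 2 of 18 passed, both of Lats2, against 32.5% of all. Within WT, 0 of 17 measured probe sets were 2-fold higher in jaw (8.19% of all) and 0 were 2-fold higher in brain (8.87%). Within FoxO6-/-, 0 of 18 were 2-fold higher in jaw (10.2%) and 2, both of Wwc1, were 2-fold higher in brain (11.3%).

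Lats2 leaned most toward jaw among the members. Its second probe set gave 945 and 769 in WT and FoxO6-/- jaw against 477 and 503 in WT and FoxO6-/- brain. The jaw minus brain log2 difference was 0.80 ± 0.20 (limma, SE), with a 95% interval of 0.24 to 1.36 and an adjusted p of 0.0847. The brightest gave 1957 and 1362 against 1286 and 956 and a log2 difference of 0.56 ± 0.17 with an adjusted p of 0.124 from limma. The third, near the floor, gave 111 and 131 against 86.5 and 93.7 and a difference of 0.43 ± 0.17 with an adjusted p of 0.194 from limma. With a variance trend in the limma fit the second and the brightest passed, with adjusted p of 0.0254 and 0.0369. The share of all probe sets called in that setting is not given here, so these calls cannot be set against it. Over all settings run, the adjusted p of the second ran from 0.0254 to 0.358 and that of the brightest from 0.0369 to 0.409.

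Wwc1, which encodes KIBRA, was the member that leaned most toward brain. Its brightest probe set had 795 and 601 in WT and FoxO6-/- jaw and 1017 and 1443 in brain. The jaw minus brain log2 difference was -0.81 ± 0.29, with a 95% interval of -1.64 to 0.02 and an adjusted p of 0.160 from limma. The second had 476 and 279 against 533 and 706, a difference of -0.75 ± 0.35 with an adjusted p of 0.237 from limma. The jaw over brain log2 ratios were -0.36 and -0.16 within WT and -1.26 and -1.34 within FoxO6-/-. Neuronal markers were lower in jaw in 16 of 16 genes, and their part in the Wwc1 values was not tested.

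The other members differed less between the tissues. Mob1a and Mob1b, close paralogs that activate LATS, had log2 differences of 0.49 ± 0.19 for the brighter Mob1a probe set, 0.16 ± 0.17 for the other and 0.38 ± 0.17 for Mob1b. Sav1 had 0.36 ± 0.21 and 0.38 ± 0.21 from its 2 probe sets, with WT jaw at 2056 and 262 and WT brain at 1370.4 and 172. Stk4 had 0.19 ± 0.17 and 0.22 ± 0.17. Nf2 had -0.29 ± 0.20 and -0.07 ± 0.18, and Lats1 had -0.10 ± 0.18 with a 95% interval of -0.62 to 0.42. Fat4 had 0.08 ± 0.21 and -0.04 ± 0.17, and Amot had 0.21 ± 0.23. Adjusted p of these probe sets ran from 0.177 to 0.886 in the limma fit.

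**Figure D2:**
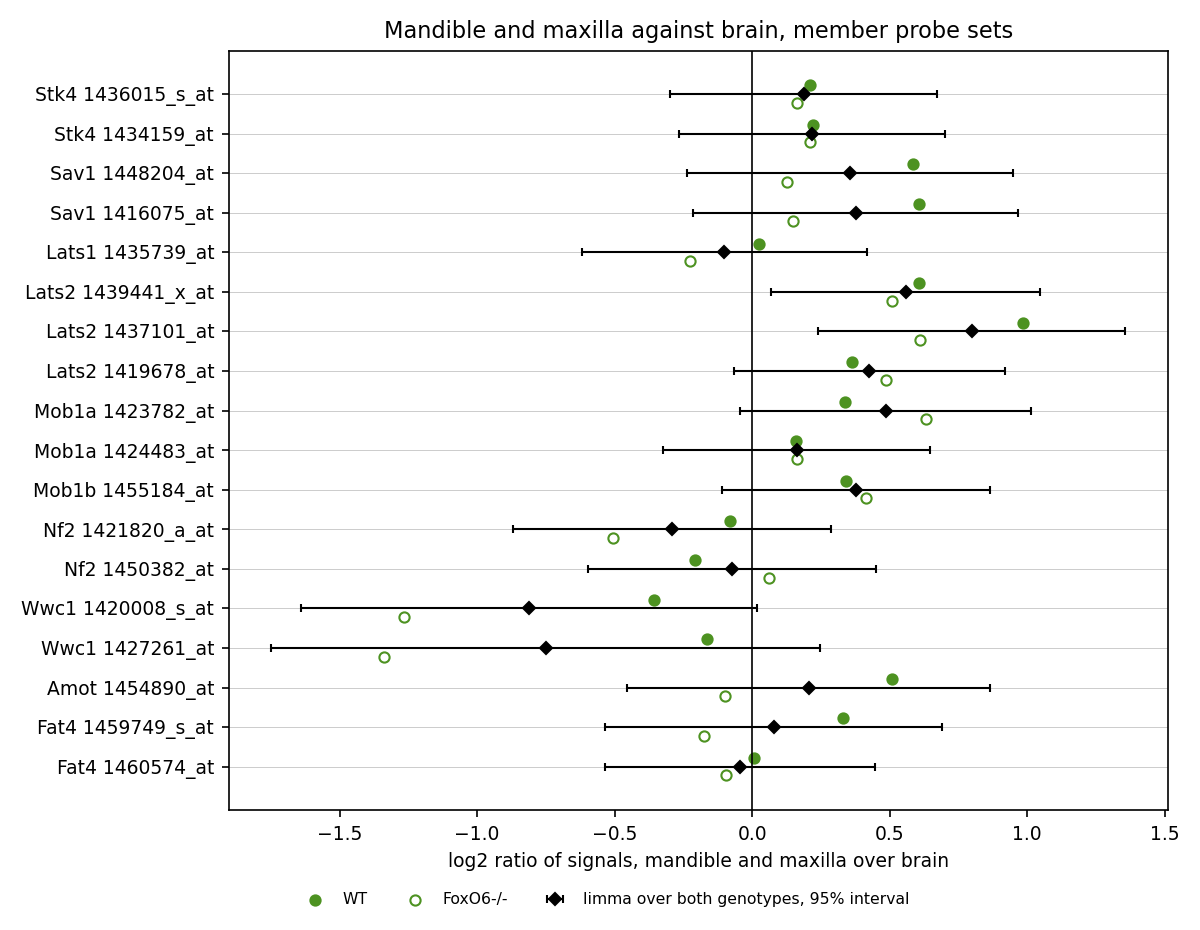
Log2 ratio of mandible and maxilla over brain for the 18 probe sets, with green points for each genotype (filled WT, open FoxO6-/-) and black diamonds for the limma estimate with its 95% interval. Lats2 lies farthest to the right, at 0.80, and Wwc1 farthest to the left, at -0.81.

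Between genotypes, most probe sets of the cascade had a somewhat lower signal in FoxO6-/- than in WT jaw, and 0 of those measured differed by 2-fold. Of 19 probe sets measured in jaw 15 were below 0 on the log2 scale, against 54.6% of all 22799. A log2 ratio of -0.5 or less was reached by 5 (11.3% of all), 1 each of Wwc1, Fat4, Sav1, Lats2 and Amot, and a ratio of 0.5 or more by 0 (5.22%). At 2-fold 0 were lower (2.02%) and 0 higher (0.689%). The median of the 19 was -0.30 against -0.03 for all probe sets. Centring each array on its median added 0.13 to every jaw ratio, which left 11 below 0, 1, of Wwc1, at -0.5 or less and 1, of Stk4, at 0.5 or more, with a median of -0.16 against 0.10 for all. Without _s_at, _x_at and _a_at probe sets, whose probes can match several transcripts, 14 members were left with a median of -0.14 against -0.05 for all.

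In brain the ratios lay on both sides of 0. There 8 of 17 measured probe sets were below 0, against 45.4% of all 22256, and the median was 0.08 against 0.03. A ratio of -0.5 or less was seen for 1, of Nf2 (11.0% of all), and of 0.5 or more for 1, of Wwc1 (5.92%). At 2-fold 0 were lower (3.55%) and 0 higher (0.980%). Median centring added 0.14 to every brain ratio. After it 4 of 17 were below 0, with a median of 0.22 against 0.18 for all probe sets. Whether the genotype ratios differ between the tissues was not tested. In both tissues together 7 of 18 were lower in FoxO6-/-, against 27.4% of all probe sets. After median centring 3 of 18 were, and the share of all after centring is not given here. The limma fit over both tissues, with tissue as a term, called 0 of 18 members and 0 of 23057 probe sets higher or lower (0.00% each way). At an unadjusted p under 0.05 it held 1253 probe sets in all and 1 of the members, the second probe set of Nf2 (5.43% of all).

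**Figure D3:**
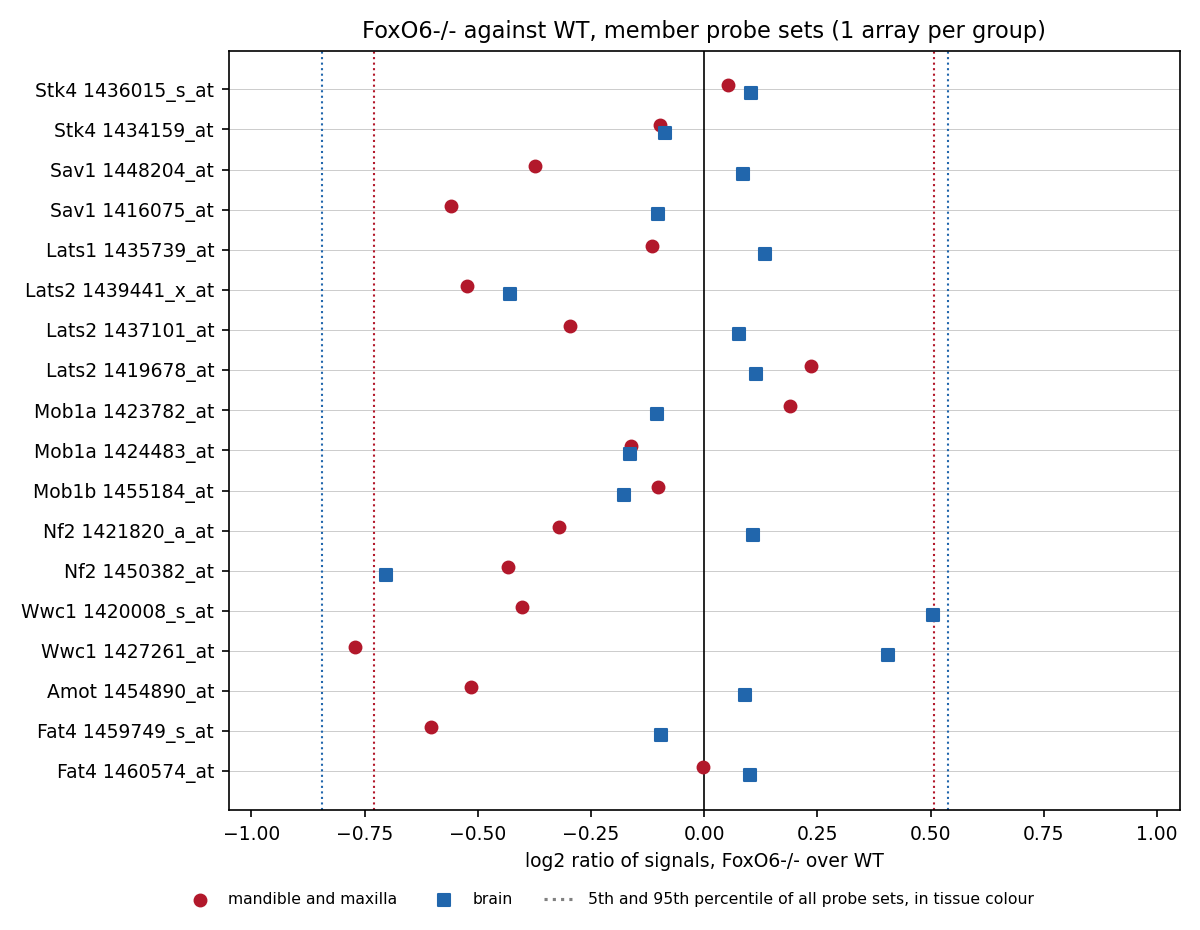
Log2 ratio of FoxO6-/- over WT for the 18 probe sets, red for mandible and maxilla and blue for brain, with dotted lines at the 5th and 95th percentile of all measured probe sets in the same colour. Most red points lie left of 0, blue points lie around 0, and only the second Wwc1 probe set in jaw lies past a line of its colour.

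Among the kinases and their scaffold, Stk4 had small ratios in both tissues. Its brightest probe set had 2673 in WT and 2773 in FoxO6-/- jaw and 2308 and 2479 in brain, log2 ratios of 0.05 and 0.10. The second had 708 and 662 in jaw and 607 and 571 in brain, ratios of -0.10 and -0.09 that became 0.03 and 0.06 after median centring. The third passed the floor in jaw alone, with 93.2 and 122 and a ratio of 0.39. Sav1, which joins the MST and LATS kinases, was lower in FoxO6-/- jaw in both probe sets. The brightest had 2056 in WT and 1586 in FoxO6-/- jaw, a ratio of -0.37, and 1370.4 and 1454 in brain, a ratio of 0.09. The second had 262 and 178 in jaw, a ratio of -0.56, and 172 and 160.4 in brain, a ratio of -0.10 that became 0.04 after median centring. In both, the WT jaw array stood above the other 3, which lay close together.

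Of the LATS kinase genes, Lats1 varied little between genotypes. Its 1 probe set above the floor had 1639 in WT and 1513 in FoxO6-/- jaw and 1613 and 1769 in brain. Its log2 ratios were -0.12 in jaw, which became 0.02 after median centring, and 0.13 in brain, and 40.0% of all measured probe sets in jaw had a ratio as low or lower. The genotype estimate over both tissues was 0.01 ± 0.18 (limma, SE), with a 95% interval of -0.51 to 0.53. For Lats2 the brightest probe set was lower in FoxO6-/- in both tissues, 1957 against 1362 in jaw and 1286 against 956 in brain. These ratios of -0.52 and -0.43 gave a genotype estimate of -0.48 ± 0.17 with a 95% interval of -0.96 to 0.01 and an adjusted p of 0.865 from limma. The second gave -0.30 in jaw and 0.08 in brain, and the third gave 0.24 in jaw. The 3 Lats2 probe sets thus did not share a direction, and the suffix _x_at of the brightest marks probes that may also match other transcripts.

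The other Lats1 probe set lay far below the floor and gave a very different ratio. Its signals were 22.8 in WT and 0.815 in FoxO6-/- jaw and 26.6 in WT and 2.26 in FoxO6-/- brain. The log2 ratios were -4.81 in jaw and -3.56 in brain. Signals this low scatter widely on these arrays. Of 10650 probe sets with a mean jaw signal below 25, 59.3% differed between genotypes by 2-fold and 14.9% by 8-fold in either direction. Of 10555 probe sets with a mean over all 4 arrays below 25, 61 dropped 8-fold or more in both tissues (0.578%). A rise of that size in both was seen for 98 of them (0.928%). Of the 3 dim Lats2 probe sets, 2 had a higher signal in FoxO6-/- jaw, 0.827 against 17.8, a ratio of 4.43, and 7.65 against 20.5. The other had 83.5 in WT and 56.2 in FoxO6-/- jaw.

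**Figure D4:**
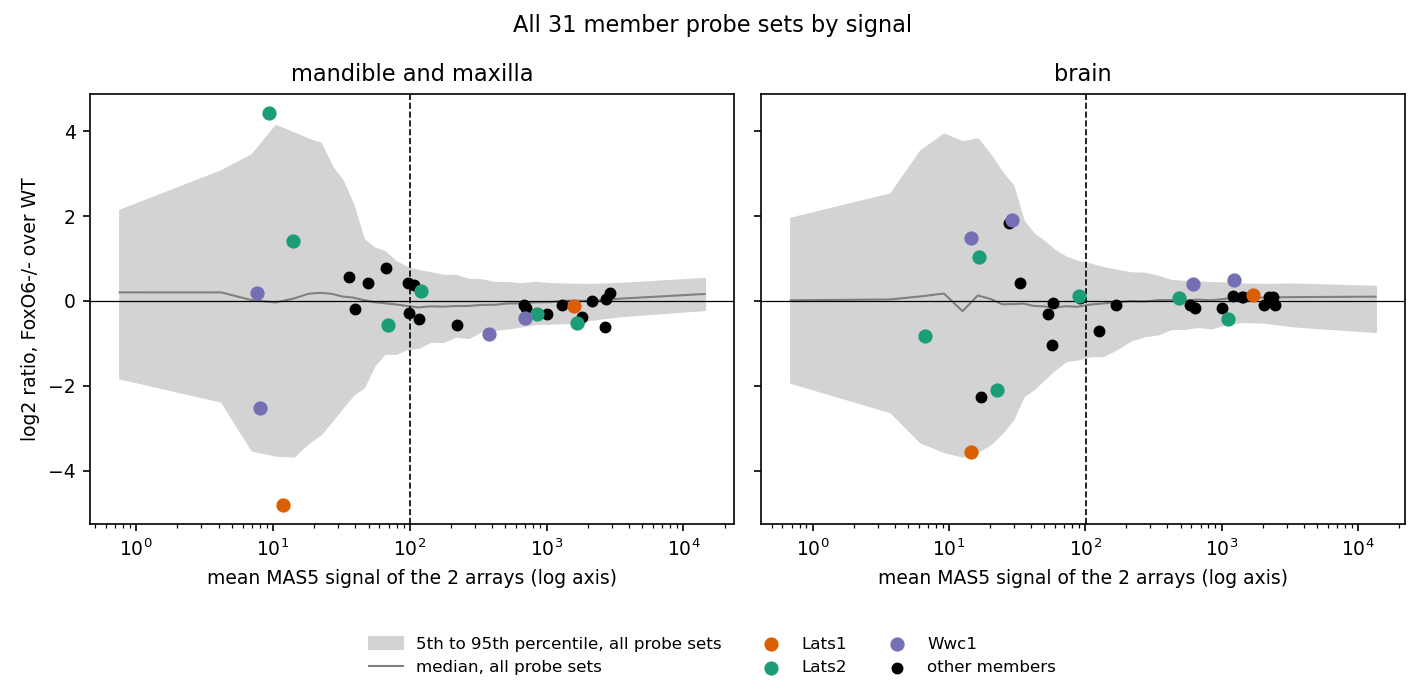
Log2 ratio of FoxO6-/- over WT against the mean MAS5 signal of the compared arrays (log axis) for all 31 probe sets, in mandible and maxilla (left) and brain (right), with the 5th to 95th percentile of all probe sets in grey and the floor dashed. The grey band narrows with signal, and the Lats1 point at -4.81 and the Lats2 point at 4.43 lie below the floor, while all members above it lie within 1 log2 unit of 0.

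The MOB1 genes showed small ratios of either sign. The brightest Mob1a probe set had 2699 in WT and 3076 in FoxO6-/- jaw, a ratio of 0.19, and 2135 and 1985 in brain, a ratio of -0.10 that became 0.04 after median centring. The second had 750.0 and 671 in jaw and 671 and 599 in brain, ratios of -0.16 in both tissues. Mob1b had 1346 and 1255 in jaw and 1063 and 941 in brain. These gave ratios of -0.10 in jaw, which became 0.03 after median centring, and -0.18 in brain. All of these are smaller than the SD of the difference in ratio between probe sets of 1 gene. That SD does not measure error between animals or arrays.

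Of the upstream genes, Wwc1 had ratios of opposite sign in the tissues, as the brightest probe sets of Nf2 and Amot also had. In jaw the brightest probe set had 795 in WT and 601 in FoxO6-/- and the second 476 and 279, log2 ratios of -0.40 and -0.77, and 4.25% of all probe sets had a ratio as low as the second. In brain they had 1017 in WT and 1443 in FoxO6-/- and 533 and 706, ratios of 0.50 and 0.41, and 94.2% and 90.6% of all probe sets had a ratio as low or lower. A log2 ratio of -0.25 or less in jaw with 0.25 or more in brain was seen for these 2 of 18 probe sets and for 6.18% of all, limits that were set after the values were seen. Other pathway genes past these limits by their brightest probe set included Dchs1, at -0.54 in jaw and 0.33 in brain. Patj had -0.37 and 0.47 from its brightest probe set, but 0.17 and 0.38 from another above the floor. The signs of the Wwc1 ratios held after quantile normalization and after median centring. Markers of neurons had ratios of the same signs, with a summed signal of 16 genes of 6444 in WT and 4383 in FoxO6-/- jaw and of 65004 and 81689 in brain, and 10 of 10 measured in jaw lower. Cartilage markers did so too, with 12 of 12 lower in jaw and 12 of 12 higher in brain and summed signals of 47198 and 28588 in jaw and 28873 and 52816 in brain. Their part in the Wwc1 ratios was not tested.

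Nf2, which encodes merlin, had 1109 in WT and 888 in FoxO6-/- jaw from its brightest probe set, a ratio of -0.32, and 1172 and 1262 in brain, a ratio of 0.11. Its second probe set, close to the floor, had 134 and 99.6 in jaw and 155 and 95.4 in brain, ratios of -0.43 and -0.70. The genotype estimate for this probe set was -0.57 ± 0.18 in the limma fit, where p was 0.0399 before and 0.865 after adjustment. Amot had, from its 1 probe set above the floor, 1985 in WT and 1389 in FoxO6-/- jaw and 1396 and 1486 in brain. These gave ratios of -0.52 and 0.09. As for Sav1, the WT jaw array stood above the other 3. The Amot probe sets below the floor were higher in FoxO6-/- than in WT jaw, 111 against 83.4 and 43.1 against 29.2. The Fat4 probe sets differed. The brightest had 3209 and 2112 in jaw, a ratio of -0.60, and 2550 and 2386 in brain, a ratio of -0.10 that became 0.05 after median centring. The second had 2167 and 2163 in jaw and 2155 and 2310 in brain, and its 4 signals were within 1.07-fold of each other.

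Other genes of the pathway were taken from lists of further upstream regulators, of YAP, TAZ, TEAD and 14-3-3 genes, and of YAP and TAZ targets. Of 101 such genes 84 had a mean over the 4 arrays at or above the floor, each by its brightest probe set. Of those measured in the pair of a tissue, 49 of 84 were below 0 in jaw, against 54.6% of all probe sets. In brain 24 of 82 were below 0, against 45.4% of all. The medians were -0.03 in jaw and 0.11 in brain, against -0.03 and 0.03 for all probe sets. By list, where a few genes belong to more than 1, the further upstream genes had 30 of 53 below 0 in jaw with a median of -0.03, the YAP, TAZ, TEAD and 14-3-3 genes 8 of 15 with -0.01 and the targets 14 of 21 with -0.07, and their medians in brain were 0.09, 0.12 and 0.27. Between the tissues limma called 5.56% of all probe sets higher in jaw and 7.58% higher in brain at an adjusted p of 0.05. Among the 84 genes it called 3 higher in jaw and 6 higher in brain. Those higher in jaw were Sfn, a 14-3-3 gene of stratified epithelium, with a log2 difference of 2.82 and both brain arrays below the floor, the TEAD cofactor Vgll3 with 1.48 and the polarity gene Llgl2 with 1.07. The highest in brain were the kinase genes Tnik and Mark1, with -1.81 and -1.58, and the cadherin gene Fat3 with -1.09. Other Tnik probe sets above the floor ran from -1.26 to 0.48, and those of Mark1 from -1.64 to -0.40. The genotype term called 0 of the 84. Among brightest probe sets measured in jaw, the lowest ratio was that of the polarity gene Pard6b at -0.71. It had 125 in WT and 76.5 in FoxO6-/- and a mean just above the floor. The ubiquitin ligase gene Siah2 followed at -0.59, and the highest were Pard6a at 0.45 and Sfn at 0.42. In brain Ankrd1 and Dlc1 were lowest at -0.71 and -0.56, and the TEAD gene Tead3 and the target Thbs1 were highest at 0.60 and 0.58. Dimmer probe sets above the floor went further, such as those of Crim1 at -0.94 and Ywhab at 1.23 in jaw. In brain such probe sets included those of Strn3 at -1.32 and Csnk1d at 0.67.

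By the distance between centred log2 signals over the 4 arrays, among 93 pathway genes, the pattern nearest to Lats1 was that of Fbxw11 (0.14), followed by Wwc2 and Rassf6 (0.19 each). Nearest to Lats2 was the YAP target Ccn1 (0.20), with 2017 and 1532 in WT and FoxO6-/- jaw and 1185 and 986 in brain, followed by Scrib (0.31) and Limd1 (0.37). Each gene was taken by its brightest probe set, an _x_at one for both Lats2 and Ccn1. Other Ccn1 probe sets had WT jaw over brain log2 ratios of 0.33, 1.62 and 1.68, against 0.77 for the brightest. With 4 arrays such distances only describe the data.

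**Figure D5:**
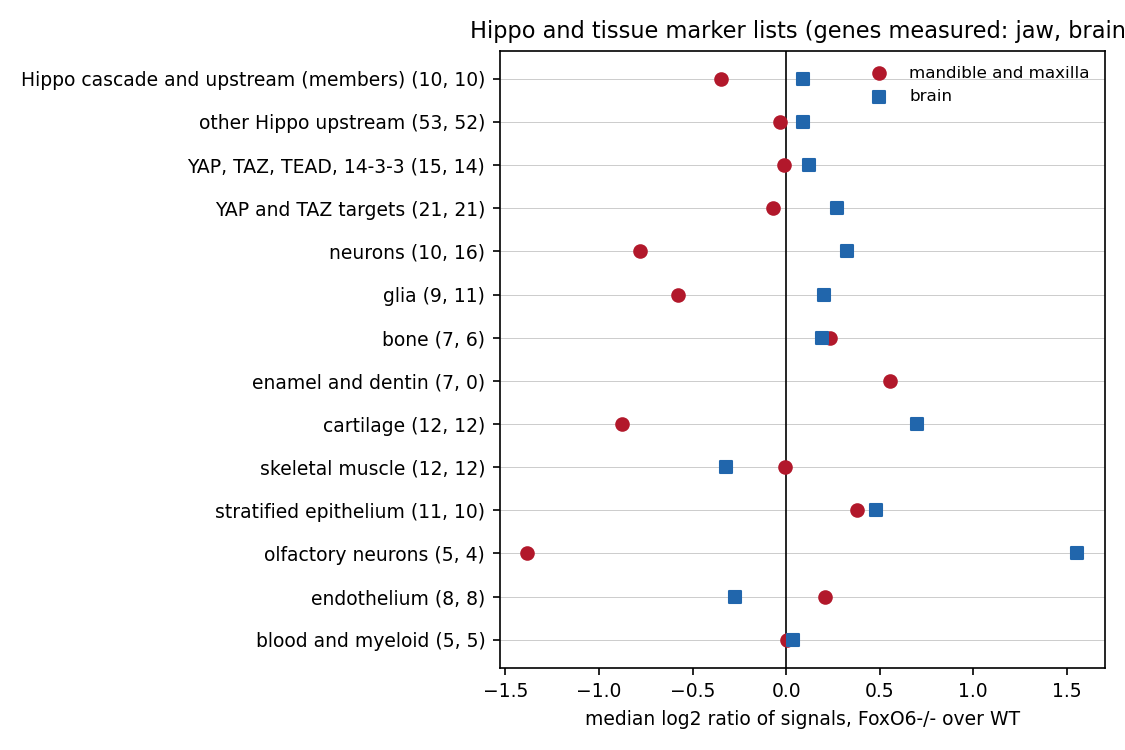
Median log2 ratio of FoxO6-/- over WT for the Hippo lists and tissue marker lists, 1 probe set per gene, red for mandible and maxilla and blue for brain, with the number of genes measured in each in brackets and enamel genes not measured in brain. The 10 cascade genes have medians of -0.35 and 0.09, cartilage -0.88 and 0.70 and olfactory neurons -1.38 and 1.56.

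Among the marker lists, median genotype log2 ratios were -0.78 in jaw and 0.32 in brain for neurons and -0.58 and 0.20 for glia. Bone had 0.23 and 0.19, stratified epithelium 0.38 and 0.48 and blood cells 0.01 and 0.04. Endothelium had 0.21 and -0.27, skeletal muscle -0.01 and -0.32, and enamel and dentin genes 0.55 in jaw. The part of these lists in the ratios of the cascade was not tested.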

How the data were processed

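Jaw (mandible with maxilla) and brain RNA was hybridised to Affymetrix mouse expression arrays. The authors deposited 1 MAS5 intensity per probe set and array, already scaled, with a trimmed mean of 500.0 on every array. No source used here gives the MAS5 version. No further normalization was applied in the main setting. Probe sets were named from the platform annotation, in which 34945 of 45101 have 1 gene symbol, 932 several, 9160 none and 64 are controls. Groups came from the sample titles. The floor was the median of all signals without controls, 101. A probe set was measured in a comparison of a pair of arrays when their mean reached the floor, and entered the limma fit when its mean over all 4 did. Ratios within a tissue or genotype have no test. The fit was limma on log2 signals of 23057 probe sets with tissue and genotype as terms, 1 residual degree of freedom and p-values adjusted by Benjamini-Hochberg, so a difference that depends on the tissue counts as error. The procedure was tested on simulated data.

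The members, lists and limits were chosen with earlier results of these data known. All probe sets of the members are given. Of other pathway genes, the 3 highest and 3 lowest called between tissues and the 2 highest and 2 lowest genotype ratios in each tissue are named, by the brightest probe set. Marker lists of neurons, glia, bone, enamel and dentin, cartilage, skeletal muscle, stratified epithelium, olfactory neurons, endothelium and blood are plotted with the Hippo lists. The alternatives tried were median centring, quantile normalization, low signals raised to the floor, a higher floor (524, the 75th percentile), no floor, no _s_at, _x_at or _a_at probe sets, 1 probe set per gene, and, for limma, 1 term alone or a variance trend. The number of arrays limits the precision. Promoters are from RefSeq on GRCm38.p6, while the arrays name no genome build. Software was R 4.3.3, limma 3.58.1, Python 3.11.15, numpy 2.4.6 and pandas 2.3.3.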

Additional observations from a re-analysis of the deposited data

Results flagged for a closer look

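Wwc1 had genotype ratios of opposite sign in the tissues. The log2 ratio of FoxO6-/- over WT in jaw minus that in brain was -0.91 for its brightest probe set and -1.18 for the second. With 1 array per tissue and genotype this difference was not tested. Other pathway genes, such as Dchs1 and, by its brightest probe set, Patj, also had ratios below 0 in jaw and above 0 in brain. Another Patj probe set was above 0 in both tissues.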

How the results depend on the processing

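No paired analysis was possible because each tissue and genotype has 1 array and no replicate numbers tie samples together, beyond the genotype term that the tissue fit already holds. For the same reason no replicate could be left out. The count of members below 0 in jaw, 15 of 19, was 8 of 10 with 1 probe set per gene. That in brain, 8 of 17, was 4 of 17 after median centring. It was 4 of 10 with 1 probe set per gene and 15 of 31 with no floor. Median centring also moved the median of all probe sets in brain, from 0.03 to 0.18. With no floor, 2 members were 2-fold lower and 2 higher in jaw, and 4 lower and 4 higher in brain, of 31, against 11.0% and 11.0% of all probe sets in jaw and 13.3% and 10.7% in brain. Between tissues, no floor gave 1 member 2-fold lower and 2 higher in WT jaw than brain, and 5 lower and 5 higher in FoxO6-/-, against 14.3% and 16.3% of all in WT and 15.9% and 19.9% in FoxO6-/-. The members' median in jaw, -0.30 against -0.03 for all, was -0.14 against -0.05 without _s_at, _x_at and _a_at probe sets. Quantile normalization gave 1 member 2-fold higher in WT jaw. The 2 Wwc1 probe sets 2-fold lower in FoxO6-/- jaw than brain became 1 with the floor at the 75th percentile, without _s_at, _x_at and _a_at probe sets, or with 1 probe set per gene. Members called higher in jaw by limma, 0 otherwise, were 1 with the floor at the 75th percentile and 1 with low signals raised to the floor. With a variance trend 2 were called, and all of these calls are of Lats2. The shares of all probe sets called under these alternatives are not given here. In the genotype fit 0 members were called under each alternative run.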

Other observations

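A further probe set is annotated to Xpo4 and Lats2 together and was not counted as Lats2. Its signals were 238 in WT and 274 in FoxO6-/- jaw and 262 and 242 in brain.

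Without the floor, the member probe sets that differed by 2-fold between genotypes in brain were all dim, and 43.0% of all probe sets below the floor differed by as much there. Lower were 1 each of Lats1, Lats2, Mob1b and Nf2, with log2 ratios of -3.56, -2.10, -2.25 and -1.04. Higher were 1 of Lats2 with 1.03, 1 of Nf2 with 1.85 and 2 of Wwc1 with 1.90 and 1.48.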
